A study of Homo sapiens and Mus musculus with 24 samples.

Results

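The annexins are a family of cytosolic proteins, most of which bind membranes in the presence of calcium. This report follows 10 annexin genes, ANXA1, ANXA2, ANXA3, ANXA4, ANXA5, ANXA6, ANXA7, ANXA9, ANXA11 and ANXA13, of 13 annexin genes among the 58051 gene identifiers of the human files, and the 10 mouse genes of the same names, of 12 annexin genes among 29307. They were chosen by name, with values from these libraries already seen, so their levels and differences are a description and no p-value is given for them. In Caco-2 cells, ANXA13 had only 5 to 32 counts per library. The other human annexin genes are ANXA8, its near-identical copy ANXA8L1, and ANXA10, which had at most 3 counts in any library.

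RNA was sequenced from Caco-2, a colorectal adenocarcinoma line that resembles enterocytes, as WT cells (4 libraries), as cells in which DNMT3A was deleted (ΔDNMT3A, 4), and as ΔDNMT3A cells carrying a transgene for the long isoform (DNMT3A1, 3) or the short isoform (DNMT3A2, 4). DNMT3A is a de novo DNA methyltransferase. ΔDNMT3A is a single clone made with CRISPR-Cas9, and each isoform line is a clone grown from it under puromycin, with a tagged isoform under a CMV promoter, so all 3 altered lines share the deletion and the clone's history. In mice, EpCAM-positive colonic epithelial cells of Dnmt3a fl/fl controls (4) and of Dnmt3a ΔIEC animals (4) were compared. All were unchallenged adults with floxed Dnmt3a alleles, and ΔIEC animals also carried Villin-Cre, which is active along the intestinal epithelium. Nothing in the sources used here says that the libraries of a Caco-2 line are separate cultures, so their spread may be technical.

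Annexins share a core of repeats that in most of the family bind calcium and through it acidic phospholipids such as phosphatidylserine. In epithelium they are known for work at the membrane: linking it to actin, moving vesicles, sealing tears and, once outside the cell, signalling. ANXA2 forms a complex with S100A10, a small S100 protein that depends on it for stability, and ANXA1 acts through formyl peptide receptors in the resolution of inflammation.

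Levels are CPM, counts scaled to a common library size (TMM), as mean ± SD. WT cells held 65.4 ± 2.48 CPM of DNMT3A (n = 4), which fell to 20.7 ± 1.27 with the deletion (n = 4). The DNMT3A1 line held 37.7 ± 1.13 (n = 3), and the line labelled DNMT3A2 21.8 ± 1.36 (n = 4). The libraries labelled DNMT3A2 thus did not exceed ΔDNMT3A in RNA counted on the gene's annotated exons (log2 fold change 0.07, 95% confidence interval -0.05 to 0.19). The 50 tested genes around DNMT3A had a median of -0.81 in this comparison, so DNMT3A lay above its neighbours. Whether these libraries carry the labelled isoform cannot be told from this count. Protein is not part of these data, and every direction drawn from these libraries below rests on their label. Dnmt3a was at 93.6 ± 7.79 CPM in fl/fl and 46.2 ± 3.08 in ΔIEC. EPCAM ranged from 733.9 to 1208 CPM over the Caco-2 libraries and Epcam from 1704 to 2489 in mouse. The leukocyte marker PTPRC, 1 of 10 listed, had no counts in WT, ΔDNMT3A and the libraries labelled DNMT3A2 and at most 0.0281 CPM in DNMT3A1. In each line 7 or 8 of the 10 were under 1 CPM in every library. Their sum was 24.6 to 26.1 CPM in WT and 33.4 to 38.1 in ΔDNMT3A. It was 19.4 to 20.2 in DNMT3A1 and 14.4 to 16.4 in the libraries labelled DNMT3A2. Summed over 8 epithelial markers, WT libraries held 9798 to 10190 CPM and those with the deletion 12200 to 12820. DNMT3A1 libraries held 10050 to 10420 and those labelled DNMT3A2 8494 to 8779, and the part of this in the results was not tested. Of 6 colonocyte markers CA1, CA4 and AQP8, and of 7 goblet markers MUC2, CLCA1, FCGBP and SPDEF, were under 1 CPM in all Caco-2 libraries. The goblet list summed to 157.5 to 172.9 CPM in WT, 253.0 to 270.8 with the deletion, 286.2 to 316.4 in DNMT3A1 and 150.5 to 158.6 in the libraries labelled DNMT3A2.

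The promoter windows of the 4 genes that the results turn on are shown, because DNMT3A acts on cytosines of CG pairs. Each is the 300 bases from 250 before to 50 after the RefSeq start (GRCh38.p14), 5′ to 3′ on the gene's strand, in lower case, with CG and TATAAA, or its reverse complement TTTATA, in capitals.

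ANXA1: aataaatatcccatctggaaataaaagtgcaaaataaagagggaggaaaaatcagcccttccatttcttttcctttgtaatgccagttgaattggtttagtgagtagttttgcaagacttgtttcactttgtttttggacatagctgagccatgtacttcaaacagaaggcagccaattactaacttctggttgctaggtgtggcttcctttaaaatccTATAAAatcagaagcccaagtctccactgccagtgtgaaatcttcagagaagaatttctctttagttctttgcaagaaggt

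ANXA9: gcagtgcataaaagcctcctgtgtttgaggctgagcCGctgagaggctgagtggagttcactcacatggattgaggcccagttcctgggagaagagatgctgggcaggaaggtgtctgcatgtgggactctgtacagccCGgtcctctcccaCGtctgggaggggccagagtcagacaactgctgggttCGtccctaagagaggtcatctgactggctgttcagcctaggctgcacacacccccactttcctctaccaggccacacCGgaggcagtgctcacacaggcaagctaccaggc

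ANXA2: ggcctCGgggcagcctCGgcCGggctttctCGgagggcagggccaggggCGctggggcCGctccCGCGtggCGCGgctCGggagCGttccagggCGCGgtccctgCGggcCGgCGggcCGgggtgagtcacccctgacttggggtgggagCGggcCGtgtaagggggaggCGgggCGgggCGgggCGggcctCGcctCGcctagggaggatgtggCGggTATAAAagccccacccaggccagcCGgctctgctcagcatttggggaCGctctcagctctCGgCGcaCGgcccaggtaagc

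ANXA6: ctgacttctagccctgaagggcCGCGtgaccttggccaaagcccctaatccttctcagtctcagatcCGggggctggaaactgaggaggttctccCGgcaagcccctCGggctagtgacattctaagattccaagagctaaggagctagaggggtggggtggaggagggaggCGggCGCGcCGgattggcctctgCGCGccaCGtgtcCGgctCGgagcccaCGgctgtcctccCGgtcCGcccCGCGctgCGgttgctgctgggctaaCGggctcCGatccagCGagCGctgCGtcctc

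The ANXA1 window (chr9:73151615-73151914, plus strand) held no CG and 1 TATAAA. Of the 35116 windows, 96.0% held a CG and 11.5% held TATAAA on either strand, and the share with TATAAA but no CG was not counted. The window of ANXA10, an annexin gene outside the 10, also held TATAAA and no CG. The ANXA9 window (chr1:150982042-150982341, plus strand) held 5 CG, and 33.7% of windows held as few. The ANXA2 window (chr15:60397937-60398236, minus strand) held 32 CG and TATAAA, and 18.9% of windows held as many CG. The ANXA6 window (chr5:151157730-151158029, minus strand) is the more upstream of 2 listed and held 25 CG. Over the 13 windows of 9 members the count of CG ran from 0 for ANXA1 to 44 for the upstream ANXA4 window, against a median of 14 over all windows. A count of letters is a description, and methylation was not part of these data.

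The genes differed widely in level. Per kilobase of exon, ANXA2 led in WT Caco-2 (114.4 ± 2.02 CPM per kilobase, n = 4), followed by ANXA5 (93.1), ANXA7 (77.3), ANXA3 (47.5), ANXA9 (42.2), ANXA6 (25.2), ANXA11 (16.6), ANXA4 (4.73), ANXA1 (0.953) and ANXA13 (0.187). No neighbours in this order overlapped between the WT libraries. In fl/fl mice, Anxa2 led too (169.1 ± 4.19), ahead of Anxa4 (79.5), and Anxa7 (56.4), Anxa1 (49.9) and Anxa3 (44.1) overlapped as neighbours. Anxa11 (25.3), Anxa5 (9.75) and Anxa13 (4.62) followed, and Anxa9 (2.36) overlapped with Anxa6 (1.92). The 2 species were counted on different annotations, so their values stand side by side without a test. Levels over the 10 genes summed to 2135 to 2215 CPM in WT and 2950 to 3039 in ΔDNMT3A. Without scaling by exon length, ANXA2 held 45.2% of the summed CPM over all Caco-2 libraries and Anxa2 39.5% in mouse.

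**Figure D1:**
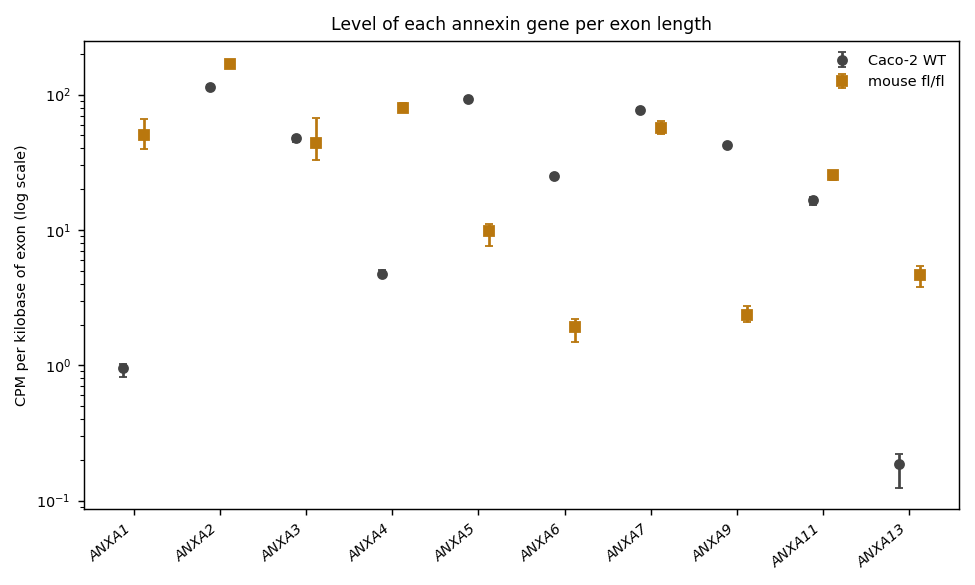
Level of each annexin gene in CPM per kilobase of exon, on a log axis, in the 4 WT Caco-2 libraries (circles) and the 4 fl/fl mouse libraries (squares). Points are means and bars run from the lowest to the highest library. ANXA2 leads in both, while ANXA1 and ANXA4 are low in Caco-2 and high in mouse.

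Against WT, 7 annexin genes lay higher and 2 lower in ΔDNMT3A past the threshold (edgeR, adjusted p under 0.05 over 16654 genes), and ANXA11 did not pass it. Of all genes tested, 31.2% passed as higher and 31.0% as lower. The members' median log2 fold change was 0.44 and that of all genes -0.005, and the median absolute values were 0.72 and 0.24. The 9 genes past the threshold did not overlap between the groups, and neither did 55.1% of all genes tested. Since the members were seen before they were chosen, these counts describe them and show nothing particular to the family.

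ANXA1 (ENSG00000135046, chromosome 9, 73151757 to 73170393), the receptor ligand of the family, changed most in ratio. It was at 4.48, 4.51, 3.76 and 4.65 CPM in WT and at 22.5, 24.2, 21.1 and 21.2 in ΔDNMT3A, with no overlap. Its log2 fold change was 2.36 (95% confidence interval 2.21 to 2.51), a 5.14-fold higher level.

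ANXA4 and ANXA6, which bind membranes and the latter of which carries a doubled set of repeats, lay higher by 1.00 and 0.84 on the log2 scale. ANXA4 rose from 50.4 to 55.9 CPM over the WT libraries to 95.3 to 109.7 in ΔDNMT3A. ANXA6 was at 136.6, 131.6, 137.8 and 141.4 CPM in WT and at 248.3, 236.5, 251.9 and 241.1 in ΔDNMT3A.

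ANXA3 lay higher by 0.74 (standard error 0.031), from 230.1 to 254.5 CPM in WT to 389.3 to 410.3 in ΔDNMT3A. ANXA2 (ENSG00000182718, chromosome 15, 60347134 to 60402883) was at 1032, 998, 992 and 1015 CPM in WT and 1427, 1457, 1459 and 1391 in ΔDNMT3A, a log2 fold change of 0.51 (standard error 0.026). Its pseudogene ANXA2P2, with which it may share reads, was at 3.07 ± 0.192 CPM in WT and 4.53 ± 0.290 in ΔDNMT3A, small against either level of ANXA2.

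ANXA5, the phosphatidylserine binder used to stain dying cells, and ANXA7, known for fusing granule membranes, changed by less, 0.17 and 0.36 on the log2 scale. ANXA5 ranged from 275.4 to 291.9 CPM in WT and from 309.2 to 318.0 in ΔDNMT3A. ANXA7 ranged from 215.7 to 226.2 and from 278.9 to 286.6 CPM, so neither gene overlapped between the groups. ANXA9 (ENSG00000143412, chromosome 1, 150982017 to 150995634) went the other way. It was at 77.3, 75.4, 77.9 and 77.6 CPM in WT and at 46.9, 43.7, 50.2 and 47.3 in ΔDNMT3A, a log2 fold change of -0.71 (standard error 0.037). ANXA13, the gut and kidney annexin, had 13 to 32 counts per WT library and 7 to 17 per ΔDNMT3A library (-1.07, 95% confidence interval -1.64 to -0.50), a small count to rest on. ANXA11 was at 130.7 to 147.8 CPM in WT and 140.5 to 154.2 in ΔDNMT3A, and the interval of its log2 fold change was -0.01 to 0.13.

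**Figure D2:**
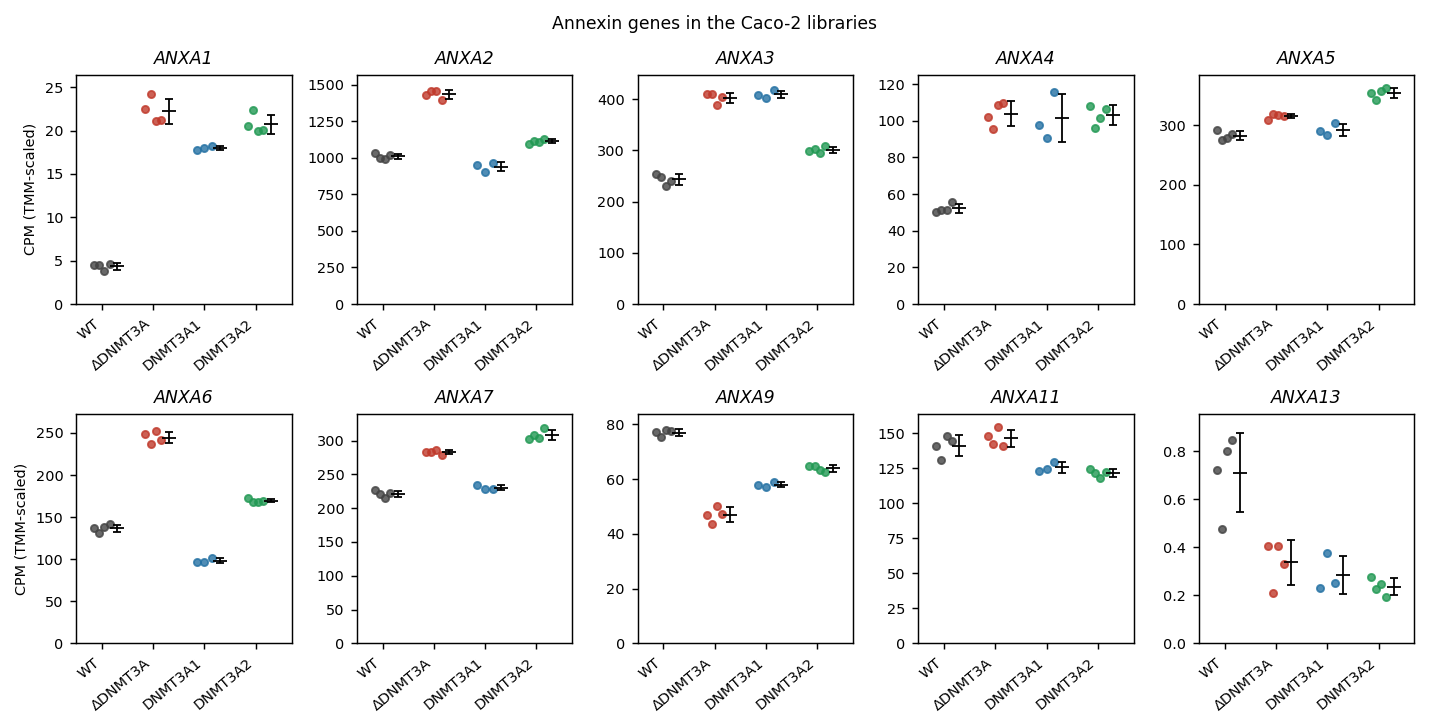
CPM (TMM-scaled) of the 10 annexin genes in each Caco-2 library, 1 panel per gene with an axis from 0. Points are libraries and black marks are the mean with SD, n = 4 (DNMT3A1: n = 3). ANXA1 is low in WT alone, and ANXA6 is highest in ΔDNMT3A and lowest in DNMT3A1.

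The other annexin genes lay higher too, apart from ANXA10. ANXA8 went from 1.89 ± 0.134 CPM in WT to 4.82 ± 0.542 in ΔDNMT3A (log2 fold change 1.35, edgeR adjusted p = 2.73e-10), and ANXA8L1 from 1.56 ± 0.369 to 4.68 ± 0.304 (1.58). The pair is near-identical and counting could divide their reads either way, so each value is uncertain. The 50 tested genes around a member had medians from -0.30 (ANXA11) to 0.18 (ANXA4) on the log2 scale, and around ANXA1 the median was 0.05.

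Between DNMT3A1 and ΔDNMT3A, 1 annexin gene lay higher and 6 lower past the threshold, against 30.4% higher and 30.3% lower of all genes. For the libraries labelled DNMT3A2, 3 of 9 tested members lay higher and 4 lower (all genes 33.8% and 34.1%), and ANXA13 was too low to test. The same ΔDNMT3A libraries serve as the reference for both, so the values are only set side by side. The median log2 fold change of the members was -0.23 in DNMT3A1 and -0.11 in the libraries labelled DNMT3A2, beside 0.014 and 0.004 over all genes.

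ANXA6 had the widest range of group means after ANXA1 among members of at least 1 CPM. It was at 96.7, 96.5 and 101.5 CPM in DNMT3A1, below all WT libraries, and at 172.5, 168.3, 168.4 and 169.5 in the libraries labelled DNMT3A2, above all of WT. On the log2 scale it stood -1.30 (standard error 0.033) from ΔDNMT3A in DNMT3A1 and -0.52 (standard error 0.025) in DNMT3A2 by label.

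ANXA2 was at 947.5, 903.9 and 962.4 CPM in DNMT3A1 and at 1096, 1114, 1107 and 1130 in the libraries labelled DNMT3A2. All lay below ΔDNMT3A, by -0.60 and -0.36 on the log2 scale, and no 2 of the 4 groups overlapped.

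ANXA1 stayed far above WT in both. The lines held 17.8, 18.0 and 18.2 CPM (DNMT3A1) and 20.6, 22.3, 19.9 and 20.1 (labelled DNMT3A2), where the latter overlapped with ΔDNMT3A. Against ΔDNMT3A the log2 fold changes were -0.30 (95% confidence interval -0.41 to -0.18) and -0.10 (-0.22 to 0.01). Without replicate 2 of the libraries labelled DNMT3A2 the second was -0.15 and past the threshold.

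ANXA4 lay near ΔDNMT3A in both lines, at 97.7, 90.9 and 116.0 CPM in DNMT3A1 and at 96.3 to 108.2 in the libraries labelled DNMT3A2, with intervals of -0.14 to 0.11 and -0.09 to 0.07. Replicate 4 of DNMT3A1 was the highest of the 3, and without it the log2 fold change was -0.13 and past the threshold.

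ANXA3 parted the lines. It was at 408.3, 402.3 and 417.6 CPM in DNMT3A1, overlapping with ΔDNMT3A, and at 299.3, 303.6, 294.3 and 308.0 in the libraries labelled DNMT3A2, which lay between ΔDNMT3A and WT.

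ANXA5 and ANXA7 moved apart between the lines. Against ΔDNMT3A, ANXA5 had log2 fold changes of -0.10 in DNMT3A1 and 0.17 in DNMT3A2 by label, and ANXA7 of -0.28 and 0.13. The 50 tested genes around ANXA5 had medians of 0.16 and 0.18, so in DNMT3A2 by label ANXA5 did not exceed its neighbours. Around ANXA7 the medians were -0.13 and -0.03. Over the libraries labelled DNMT3A2, ANXA5 ranged from 342.3 to 361.6 CPM and ANXA7 from 302.4 to 318.3, above every library of the other lines. ANXA9 lay higher than in ΔDNMT3A in both, at 57.3 to 58.8 CPM (0.32) and 62.4 to 64.9 CPM (0.45), still below all WT libraries. ANXA11 lay lower in both, by -0.21 and -0.26, which is below all WT libraries as well.

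**Figure D3:**
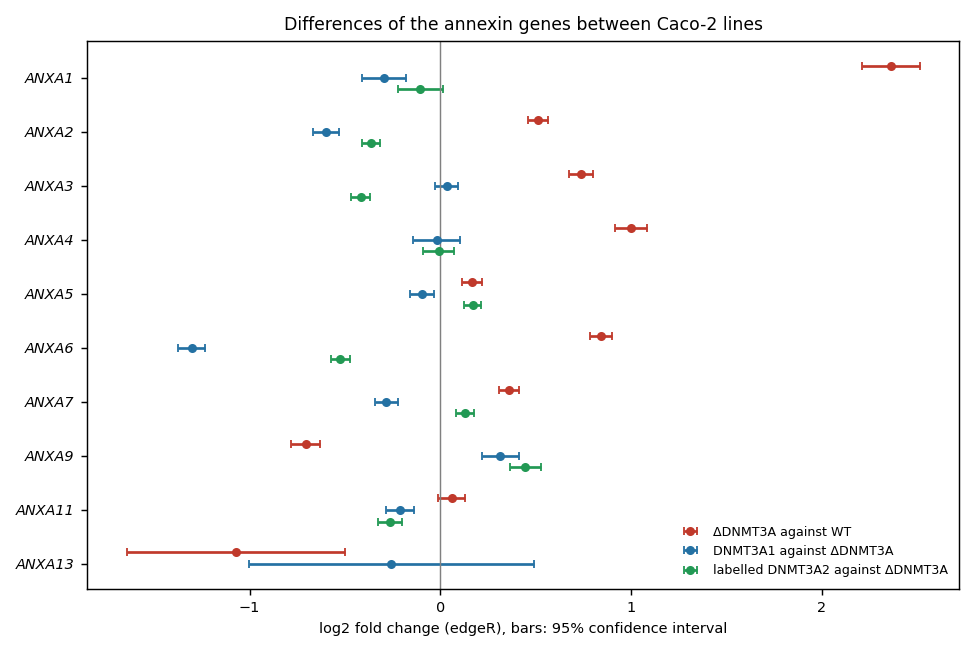
Log2 fold change of each annexin gene with its 95% confidence interval (edgeR) for ΔDNMT3A against WT, DNMT3A1 against ΔDNMT3A and the libraries labelled DNMT3A2 against ΔDNMT3A. ANXA13 has 2 points because it was not tested in the third. The intervals of ANXA4 include 0 in both isoform comparisons after a difference of 1.00, and ANXA6 spans from 0.84 to -1.30.

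Set against WT, all 10 members passed the threshold in both lines: 5 higher and 5 lower in DNMT3A1 (all genes 32.6% and 32.7%) and 7 higher and 3 lower in the libraries labelled DNMT3A2 (34.3% and 34.4%). ANXA1 was 4.21-fold and 4.78-fold above WT and ANXA4 1.98-fold and 1.99-fold. ANXA6 lay on opposite sides of WT, by -0.45 in DNMT3A1 and 0.32 in the libraries labelled DNMT3A2. In DNMT3A1 the differences of ANXA2 (-0.08), ANXA5 (0.08) and ANXA7 (0.08) were small, and ANXA5 overlapped with WT. ANXA2 and ANXA5 lost the threshold when single libraries of either group were left out (7 to 9 of 10 members then passed), and ANXA7 did so without DNMT3A1 replicate 1 (0.07).

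The lines differed directly in 7 of 9 tested members: 1 higher and 6 lower in DNMT3A1 than in the libraries labelled DNMT3A2, where all genes gave 34.5% and 33.9%. ANXA6 differed most (-0.78, 95% confidence interval -0.84 to -0.72), ANXA3 was the one higher in DNMT3A1 (0.45), and the intervals for ANXA4 and ANXA11 were -0.12 to 0.09 and -0.01 to 0.11.

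Some S100 proteins bind annexins, and 4 of their genes were on a list of partners. All 4, S100A4, S100A6, S100A10 and S100A11, lay higher in ΔDNMT3A than in WT and lower in both isoform lines than in ΔDNMT3A (edgeR, adjusted p under 0.05), with medians of 0.92, -0.96 and -0.96 on the log2 scale. Of all genes, 31.2% lay higher in the first comparison and 30.3% and 34.1% lower in the others. All these comparisons share the ΔDNMT3A libraries, so the directions are not separate results. In the libraries labelled DNMT3A2 against ΔDNMT3A, the 50 tested genes around each had medians from -0.29 to -0.23, where S100A11 itself was at -0.29. For ΔDNMT3A against WT these medians ran from 0.15 to 0.17. The 0.17 was that around S100A10, which was itself at 0.20, so it lay little above its neighbours. S100A10, the partner of ANXA2, was at 601.2, 584.7, 607.2 and 606.1 CPM in WT and 689.1, 668.4, 690.4 and 700.6 in ΔDNMT3A (0.20, adjusted p = 2.23e-07). It fell to 529.3, 510.7 and 561.9 in DNMT3A1 and to 345.0, 346.9, 346.4 and 362.5 in the libraries labelled DNMT3A2. In those libraries S100A10 lay below all WT libraries, whereas ANXA2 lay above all of them. Against WT, ANXA2 was at 0.15 there and the 50 tested genes around it had a median of 0.19, so it did not exceed its neighbours. S100A10 was at -0.765, and the median around it was 0.07.

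In ΔDNMT3A against WT and in DNMT3A1 against ΔDNMT3A, S100A6 and S100A4 had the largest differences of the 4. WT cells held 93.3 ± 3.01 CPM of S100A6 and ΔDNMT3A cells 197.2 ± 4.01. The DNMT3A1 line was lowest at 61.7 ± 2.17, and the libraries labelled DNMT3A2 were at 93.8 ± 3.01. S100A4 was lower in level, at 5.70 ± 0.527 (WT), 12.2 ± 0.856 (ΔDNMT3A), 4.06 ± 0.314 (DNMT3A1) and 6.31 ± 0.717 CPM (labelled DNMT3A2). Of the libraries labelled DNMT3A2 against WT, the intervals were -0.04 to 0.08 for S100A6 and -0.03 to 0.35 for S100A4.

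**Figure D4:**
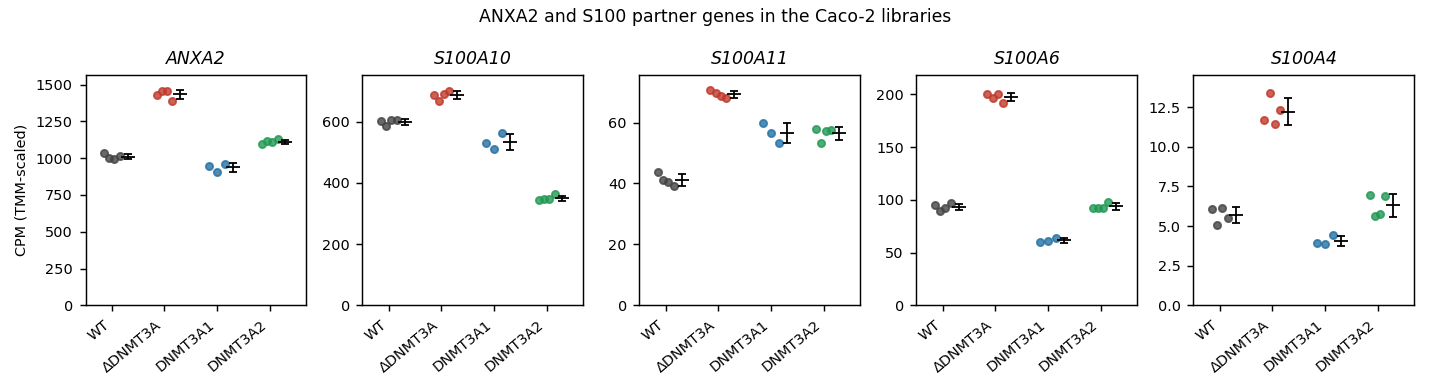
CPM (TMM-scaled) of ANXA2 and 4 S100 partner genes in each Caco-2 library, with axes from 0. Points are libraries and black marks are the mean with SD, n = 4 (DNMT3A1: n = 3). All 5 genes are highest in ΔDNMT3A, and S100A10 is lowest in the libraries labelled DNMT3A2.

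Of the 9 other partners and receptors, 5 were tested in ΔDNMT3A against WT, 3 higher and 1 lower, where all genes gave 31.2% and 31.0%. The formyl peptide receptors FPR1, FPR2 and FPR3 through which ANXA1 signals were at 0 counts in every Caco-2 library, WT included. AHNAK, a large scaffold bound by the ANXA2 complex, went from 552.6 ± 40.2 CPM to 792.0 ± 56.4 (0.53). SRI, the calcium protein sorcin that binds ANXA7, lay lower (-0.29), and the 50 tested genes around it had a median of -0.47. In DNMT3A1, PDCD6, a partner of ANXA11 and ANXA7, lay lower than in ΔDNMT3A (-0.67), and the 29 tested genes around it had a median of -0.49. AHNAK lay narrowly lower (-0.16, edgeR adjusted p = 0.0434). In the libraries labelled DNMT3A2 the largest changes were PLA2G4A, the cytosolic phospholipase that ANXA1 can inhibit, at 3.40 ± 0.243 CPM against 0.528 ± 0.162, and AHNAK (-0.62).

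Of 9 genes for phosphatidylserine exposure and flipping, 8 were tested in ΔDNMT3A against WT, 5 higher and 3 lower, with a median of 0.12 (all genes 31.2% and 31.0%). PLSCR1, a scramblase-family protein, lay lower in ΔDNMT3A (-0.51). In DNMT3A1, 3 of 8 lay higher and 4 lower than in ΔDNMT3A (30.4% and 30.3%), with TMEM30A, a flippase subunit, at 0.30. In the libraries labelled DNMT3A2, 2 of 8 lay higher and 4 lower than in ΔDNMT3A (33.8% and 34.1%), with the flippase ATP8A1 at -1.27.

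Of 14 membrane repair genes, 13 were tested in ΔDNMT3A against WT, 6 higher and 4 lower, with a median of 0.08 (all genes 31.2% and 31.0%, median -0.005). EHD2 and the ferlin DYSF had the largest values, 1.31 and 1.07, at mean levels under 5 CPM in every group. In DNMT3A1, 1 lay higher and 8 lower than in ΔDNMT3A (all genes 30.4% and 30.3%), and the largest values were those of DYSF (-0.82) and the ESCRT gene CHMP4A (0.74, where the 50 tested genes around it had a median of 0.44). In the libraries labelled DNMT3A2, 2 lay higher and 6 lower (33.8% and 34.1%), with EHD2 and EHD1 both at -0.64.

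For ANXA1 and ANXA6, the members with the widest range of group means among those of at least 1 CPM, the most similar genes over the 15 Caco-2 libraries were sought among 13747 genes. GMPR (r = 0.992), RYR2 (0.992) and PLAAT3 (0.987) were nearest to ANXA1, and CYCS (0.991), COL4A1 (0.989) and LMBRD2 (0.989) to ANXA6 (Pearson's r of log2 CPM with a pseudocount of 0.1). The libraries form 4 clusters by line, so r describes little more than the 4 group means. RYR2 for instance had group means of 1.46, 22.3, 16.8 and 25.5 CPM in the order WT, ΔDNMT3A, DNMT3A1 and DNMT3A2 by label.

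In mouse colonic epithelium, no annexin gene passed the threshold in ΔIEC against fl/fl with edgeR (0 of 10, 2 with an unadjusted p under 0.05), and 1, Anxa9, did with DESeq2. Of 14626 genes tested, 0.602% passed as higher and 0.0889% as lower. The members' median log2 fold change was 0.10 and that of all genes -0.004, with median absolute values of 0.16 and 0.15. In bulk libraries fewer cells of a type and less RNA per cell cannot be told apart.

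Anxa9 was the 1 member of 10 with no overlap between the groups, as were 10.2% of all genes tested. It was at 4.36, 4.83, 4.73 and 5.69 CPM in fl/fl and at 6.46, 8.52, 18.1 and 9.94 in ΔIEC, where replicate 3 was the highest. The log2 fold change was 1.11 (95% confidence interval 0.49 to 1.73), and without ΔIEC replicate 3 it was 0.75. Fam63a, which shares 3.42% of the exon bases of Anxa9 on the other strand, was at 78.0 to 97.4 CPM in fl/fl and 77.9 to 101.4 in ΔIEC. In Caco-2, ANXA9 had gone the other way on deletion.

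Anxa6 lay at 6.48, 5.40, 6.22 and 4.39 CPM in fl/fl and at 4.56, 3.43, 3.52 and 3.68 in ΔIEC, overlapping by 1 library of each group (-0.57, 95% confidence interval -0.96 to -0.18). The other 8 genes had overlapping groups and log2 fold changes from -0.05 (Anxa3) to 0.30 (Anxa5). For Anxa1, which differed most in Caco-2, the interval was -0.23 to 0.62, and for Anxa4 -0.10 to 0.36. Anxa8 was at 79.7 CPM in fl/fl and 93.4 in ΔIEC on average (0.22), and Anxa10 had no counts.

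The partner lists held no gene past the threshold in mouse, with 3 of 4 S100 genes, 6 of 9 other partners, 9 of 9 phosphatidylserine genes and 11 of 14 repair genes tested. S100a10 was at 263.0 ± 38.7 CPM in fl/fl and 319.6 ± 67.0 in ΔIEC (0.27), and S100a6 at 893.8 ± 179.7 and 1111 ± 218.0 (0.30). The largest log2 fold changes were -0.18 (Ahnak) among the other partners and 0.18 (Capn2) among the repair genes.

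Cell type markers moved with the mouse groups. The summed level of 6 tuft cell markers was 53.2 to 72.1 CPM in fl/fl and 177.2 to 214.3 in ΔIEC, with none under 1 CPM in every library of a group. Ptprc, 1 of 10 leukocyte markers, was at 3.48 to 4.88 CPM in ΔIEC, above all fl/fl libraries (median 1.77 CPM). Of the 10, 8 were under 1 CPM throughout, and their sum overlapped between the groups (6.95 to 11.2 CPM in fl/fl and 9.90 to 11.7 in ΔIEC). Sums for 6 colonocyte markers (10440 to 13170 and 9572 to 14780 CPM) and 7 goblet markers (22620 to 34520 and 17010 to 29890) overlapped. Their part in the values of Anxa9 and Anxa6 was not tested.

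**Figure D5:**
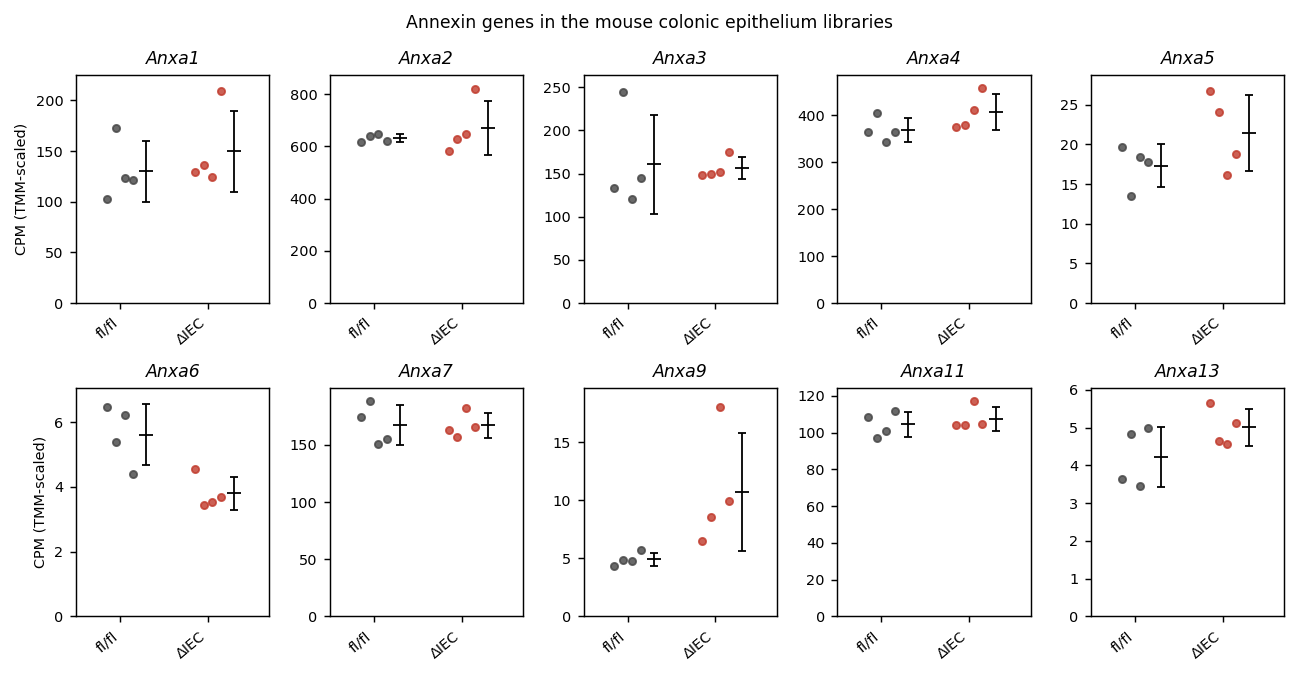
CPM (TMM-scaled) of the 10 annexin genes in each mouse library, fl/fl (n = 4) and ΔIEC (n = 4), with axes from 0. Points are libraries and black marks are the mean with SD. Anxa9 is the panel in which all ΔIEC libraries lie above all fl/fl libraries, and 1 ΔIEC library reaches 18.1 CPM.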

How the data were processed

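Gene counts of 15 Caco-2 libraries and 8 libraries of mouse colonic epithelial cells were analysed. The authors trimmed the paired reads with Trim Galore 0.4.4, aligned them with STAR 2.5.2b to GRCh38 or GRCm38 and deposited raw counts per gene. The deposited human counts were made with strand taken into account, the mouse counts without strand, so reads of overlapping mouse genes on opposite strands cannot be told apart. The file headers name featureCounts 1.5.2 (human) and 1.6.4 (mouse).

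Groups were compared pairwise with the quasi-likelihood test of edgeR 4.0.16 (R 4.3.3) after TMM scaling and filterByExpr, adjusted by Benjamini-Hochberg across the genes that passed the filter, at a threshold of 0.05. Standard errors and 95% confidence intervals came from the same fit. Levels are CPM on TMM-scaled library sizes of all libraries of a species. Genes were ordered by level only as CPM per kilobase of exon, with the exon length in the files. Shares of the summed CPM were not scaled by length. Promoter windows came from RefSeq. The tests were tried on simulated data first. Depth ranged from 22104408 to 42161299 counts (Caco-2) and from 16943626 to 24921248 (mouse). No pair of libraries of a group agreed within sampling noise (chi-square per degree of freedom 1.83 or more).

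The 10 annexin genes, their partner lists and the tests were chosen with earlier results of these data known. Text names all 10 genes, S100A10 and, per partner list and comparison described, up to 2 tested genes with the largest absolute log2 fold change and a mean of at least 1 CPM. A gene that this rule names is not reported here. Alternatives were DESeq2 1.42.0 (its test and its size factors), no filter, all groups in 1 fit, a replicate block, single sequencing lanes, leaving out each library, and a minimum absolute log2 fold change of 0.5. Replicate numbers were not taken as pairs. Replicate 3 of DNMT3A1 was not analysed here.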

Additional observations from a re-analysis of the deposited data

Results flagged for a closer look

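Among 50 sets of 4 libraries, 3 had a library apart from the others by Dixon's test, where chance gives about 1 in 20. All were in ΔIEC: replicate 4 at 209.3 CPM for Anxa1 and 175.3 CPM for Anxa3, and replicate 3 at 117.4 CPM for Anxa11. The groups of 3 DNMT3A1 libraries were not tested in this way.

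DNMT3A1 and the libraries labelled DNMT3A2, compared directly, differed in 7 members past the threshold. On the log2 scale the differences were -0.78 for ANXA6, 0.45 for ANXA3, -0.42 for ANXA7, -0.27 for ANXA5, -0.24 for ANXA2, -0.19 for ANXA1 and -0.13 for ANXA9. The 50 tested genes around ANXA2 had a median of -0.395, so ANXA2 differed by less than its neighbours. Around the others the medians ran from -0.15 (ANXA7) to 0.07 (ANXA3). Each line is 1 clone, so the isoform and the clone cannot be told apart. DNMT3A in the libraries labelled DNMT3A2 did not exceed ΔDNMT3A, while the 50 tested genes around it had a median of -0.81.

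ANXA9 lay lower in every ΔDNMT3A library than in any WT library (-0.71), while Anxa9 lay higher in every ΔIEC library than in any fl/fl library (1.11). The difference between the species was not tested.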

How the results depend on the processing

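The order of the genes per kilobase was the same for all 20 with plain total counts, and DESeq2 size factors and 1 fit over all groups moved no call. Requiring an absolute log2 fold change of at least 0.5 left 7 members in ΔDNMT3A against WT (21.9% of all genes), 2 in DNMT3A1 (23.0%) and 1 in the libraries labelled DNMT3A2 (28.2%) against ΔDNMT3A, 4 (28.5%) and 3 (27.2%) against WT, and 1 between the lines (32.4%). DESeq2 called 1 mouse member, Anxa9 (log2 fold change 1.12), where edgeR called 0. In DNMT3A1 against WT, ANXA5 did not pass with DESeq2 (0.07) or without the low-count filter (0.07), nor did ANXA7 without the filter (0.08).

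With the replicate block, 8 of 10 members passed in DNMT3A1 against WT, ANXA5 (0.07) and ANXA7 (0.07) not, and the block changed no other call of the Caco-2 comparisons. Deviations of same-numbered libraries correlated between -0.03 and 0.06, too little to take the numbers as pairs. A library was most like its own number in 18 of 42 cases, where 11.3 are expected of a number that carries nothing, a hint from the data and not from the design. No paired analysis was possible in mouse because its numbers only name the samples.

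Within lane 5, 6 members passed in DNMT3A1 against WT, ANXA13 did not pass in ΔDNMT3A against WT (-0.94), and ANXA4 was at 0.066 in the libraries labelled DNMT3A2 against ΔDNMT3A. Within lane 6, where DNMT3A1 has 1 library that was taken to vary like the others, ANXA4 was at 0.090 against ΔDNMT3A and 0.16 against the libraries labelled DNMT3A2. Calls were lost there for ANXA1 (-0.21) and ANXA5 (-0.06) in DNMT3A1 against ΔDNMT3A, for ANXA2 (-0.04) and ANXA7 (0.08) against WT and for ANXA1 (-0.13) and ANXA9 (-0.09) between the lines, where ANXA11 passed (0.12). The cause was not tested.

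Leaving out each library gave 9 members in ΔDNMT3A against WT, 7 to 8 in DNMT3A1 and in the libraries labelled DNMT3A2 against ΔDNMT3A, 7 to 9 and 10 against WT, 7 to 8 between the lines and 0 in mouse. Log2 fold changes crossed 0 for ANXA4 in DNMT3A1 against ΔDNMT3A (-0.13 to 0.047), in the libraries labelled DNMT3A2 against ΔDNMT3A (-0.049 to 0.019) and between the lines (-0.12 to 0.057). In mouse they did so for Anxa1 (-0.0054 to 0.36), Anxa2 (-0.030 to 0.14), Anxa3 (-0.17 to 0.23), Anxa7 (-0.059 to 0.053) and Anxa11 (-0.014 to 0.06). Counts of 5 to 32 limit ANXA13.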
